A study of Mus musculus with 32 samples.

Results

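Metaphase II (MII) oocytes of B6xD2 F1 hybrid females were compared with MII oocytes of D2 females, a parental inbred strain of the cross. The comparison used every MII library of those strains, 5 of F1 and 5 of D2, out of 32 libraries in the series. Each library came from the pooled oocytes, 9 to 20 in number, of a single female aged 8 to 12 weeks, so the replicate is the mother. The other libraries were MII oocytes of B6 females (6 libraries) and germinal vesicle (GV) oocytes, of which 6 F1 and 5 D2 libraries are used below. The labels give no engineered allele in any group. The zona pellucida was stripped in acid buffer at both stages, and GV oocytes were collected with IBMX, a compound that holds them at that stage. Hormone treatment of the females is not given in the sources used here. Libraries came in 2 sequencing batches. Titles of the second batch open with a date, and 2 dates occur. Both F1 MII libraries of that batch carry the earlier date, the D2 MII libraries are split between the dates, and all B6 libraries carry the later date. Date and strain are thus partly confounded within that batch. The F1 and D2 MII groups and the D2 GV group each held 3 libraries of the first batch and 2 of the second, sequenced on different instruments, and the B6 MII and F1 GV groups held 3 of each. The batch was a term of the model unless stated otherwise.

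An MII oocyte is the ovulated egg. It has completed the first meiotic division and waits on the second spindle for fertilization, and it makes almost no new RNA. Its RNA is the store built up during growth, reduced by the decay and selective translation that accompany maturation. A difference between F1 and D2 eggs is therefore a difference in stored or surviving RNA, and amount made and amount degraded are not separated by a measurement at a single time. An F1 female inherits a B6 and a D2 copy of every gene of these chromosome pairs, and her oocytes stored their RNA from both.

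Levels are given in CPM, the reads of a gene in every 1000000 reads of its library after scaling between libraries. CPM is not divided by gene length, so values compare groups for the same gene and not genes with each other. Total counts of the 10 libraries ran from 26838385 to 35321424 reads. All 15 oocyte markers checked, among them Zp1, Gdf9 and Dppa3, had reads in all 10 libraries. The first principal component of the MII libraries, 38.9% of the variance, separated the batches, and the second, 28.9%, separated F1 from D2. F1 batch 1 replicate 5 stood apart from the other libraries on the third component, which held 8.1%.

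Of 34 markers of granulosa and cumulus cells, the somatic cells that surround the egg, 3 (Amhr2, Foxl2 and Slc38a3) had no read in any of the 10 libraries, 21 had a mean below 1 CPM and 8 had a mean of 5 CPM or more. The summed level of the list was 425 to 509 CPM in F1 and 471 to 563 CPM in D2. Its mean log2 level was −0.93, −0.84 and −1.23 in the 3 F1 libraries of batch 1 against −0.07, −0.67 and 0.17 in D2, and −0.36 and −0.60 in the F1 libraries of batch 2 against 0.16 and −0.44 in D2. Within batch 1 every F1 library was below every D2 library. A refit with this level as a covariate is named below where it ended the call of a gene described, and beyond that refit its part in the results was not tested. A call lost in the refit need not mean a smaller difference. The log2 difference of Akap1 was 0.34 in the main fit and 0.43 in the refit, and that of Suclg2 was 0.44 and 0.48. It shrank for other genes, as for Hspa8, from −0.68 to −0.38. Whether granulosa RNA accounts for the lost calls was not tested. Of 28 markers of stroma, theca, blood and immune cells, 9 had no read in any of the 10 libraries and 21 had a mean below 1 CPM. In pooled samples, fewer cells of a type and less RNA per cell cannot be told apart.

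Transcript levels differed at 1542 of 19003 genes tested (8.11%), of which 934 (4.92%) were higher and 608 (3.2%) lower in F1 (edgeR quasi-likelihood test, Benjamini-Hochberg adjusted p below 0.05, here "called"). The genes higher in F1 had a median log2 difference of 1.47, and 184 of them were apart by 4 or more on the log2 scale. The genes lower in F1 had a median of −0.86, and 39 reached that size. At a minimum of 2-fold, 591 genes (3.11%) were higher and 243 (1.28%) lower. The median over all tested genes was −0.01. Every F1 library lay above every D2 library at 604 genes (3.18%) and below every D2 library at 410 (2.16%).

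The batches did not contribute equally. Batch 1 alone, 3 libraries against 3, gave 598 genes higher and 309 lower in F1, and batch 2 alone, 2 against 2, gave 299 and 44. Without the batch term, 602 genes were higher and 240 lower. With the 2 dates of batch 2 as separate levels of the batch term, 931 were higher and 577 lower. A refit of the 16 MII libraries that adjusts for the granulosa level gave 551 and 319, and without the D2 libraries of highest granulosa level (batch 1 replicate 4 and batch 2 replicate 1, an alternative chosen after the data were seen) the counts were 660 and 402. Leaving out F1 batch 1 replicate 5 lowered the count of genes at least 2-fold lower in F1 from 243 to 152.

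**Figure D1:**
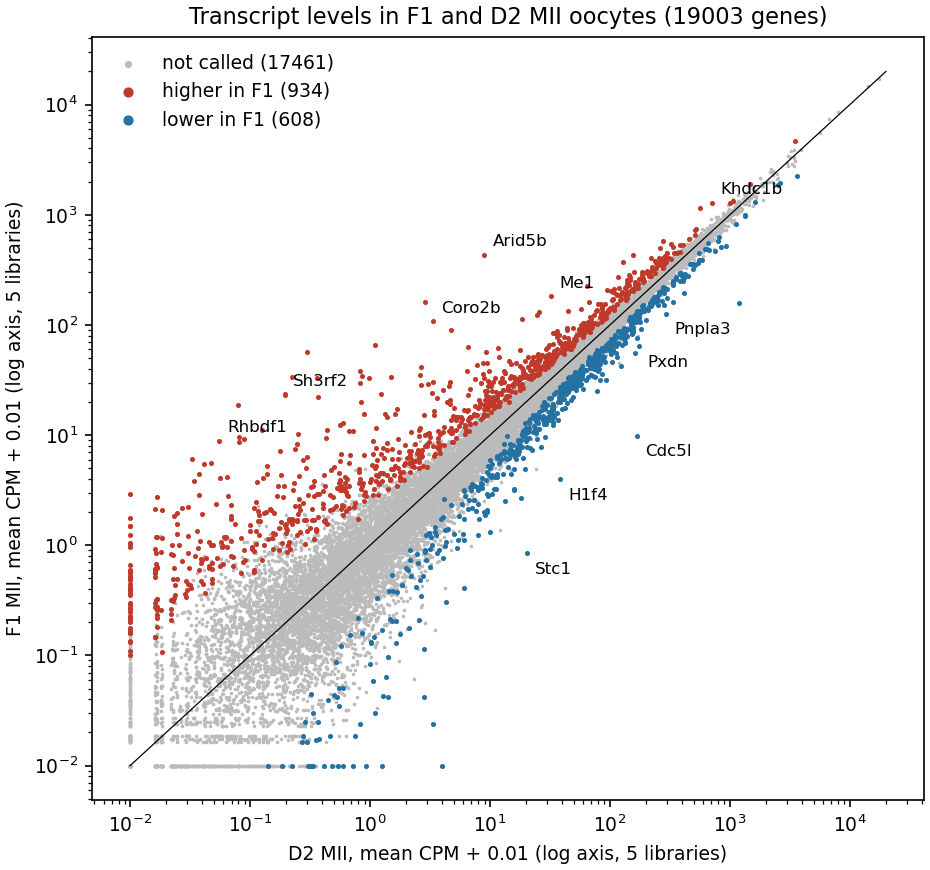
Mean level of each tested gene in the 5 D2 MII libraries (x axis, CPM + 0.01, log axis) and the 5 F1 MII libraries (y axis, same scale). Red points are the 934 genes called higher in F1, blue points the 608 called lower and grey points the rest; the line marks equal levels. The red points spread far above the line, with Arid5b at a mean of 435 CPM in F1 and 8.98 CPM in D2, while most blue points stay close below it.

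The gene with the lowest adjusted p was Arid5b (chr10:68092523-68279355, GRCm38.p6), which encodes an AT-rich interaction domain DNA-binding protein. Its level was 381, 378 and 360 CPM in the F1 libraries of batch 1 and 522 and 535 CPM in those of batch 2, against 9.79, 6.72, 5.86, 9.08 and 13.5 CPM in D2. All F1 libraries were far above all D2 libraries, with a log2 difference of 5.61 ± 0.15 (SE; edgeR, Benjamini-Hochberg adjusted p = 1.39e-25). In B6 the mean was 842 ± 167 CPM (SD, n = 6), so that F1, at 435 ± 85.7 CPM (SD, n = 5), lay between the parents. The comparisons of F1 with B6 and of D2 with B6 share libraries with the main comparison, and B6 values are given beside it as levels only.

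Me1, the cytosolic malic enzyme that turns malate into pyruvate and supplies NADPH, had the next lowest adjusted p among named genes of 50 CPM or more. It stood at 224, 171, 209, 153 and 153 CPM in F1 and at 35.2, 31.2, 32.9, 36 and 26.7 CPM in D2. The lowest F1 library was several times the highest D2 library, and the log2 difference was 2.48 ± 0.14 (edgeR, adjusted p = 1.57e-15). The B6 mean was 310 ± 37.8 CPM.

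Coro2b, a coronin that binds actin, was at 63.4, 105, 89.7, 136 and 144 CPM in F1 and at 3.39, 2.09, 0.635, 3.84 and 6.73 CPM in D2. The groups were again fully apart (log2 difference 5.08 ± 0.30, edgeR adjusted p = 1.74e-14). Rnf169, a ubiquitin-binding protein of the response to DNA double-strand breaks, averaged 113 ± 46.4 CPM in F1 and 18.4 ± 10.3 CPM in D2, and AY512915 averaged 62.5 ± 18.4 and 6.49 ± 1.56 CPM. These 5 genes have the lowest adjusted p-values among genes higher in F1 with a level of 50 CPM or more.

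The largest differences belonged to genes with few reads in D2. Sh3rf2, a RING finger and SH3 domain protein, had 23.5, 20, 17.5, 23.2 and 33.3 CPM in F1. In D2 it had 0.0633, 0.103, 0.0302, 0.296 and 0.435 CPM, which is 24 reads over the 5 libraries against 3063 in F1. Rhbdf1, an inactive rhomboid protein, averaged 8.92 ± 3.69 CPM in F1 with 7 reads in all D2 libraries, and the beta-defensin gene Defb8 averaged 9.54 ± 4.10 CPM in F1 and 0.0713 ± 0.0991 CPM in D2. The size of such differences depends on a handful of D2 reads, and the B6 means of these 3 genes were 56.9, 15.8 and 21.9 CPM. Each of the genes named from Arid5b to Defb8 kept its call in all 26 alternative analyses, including each batch alone.

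**Figure D2:**
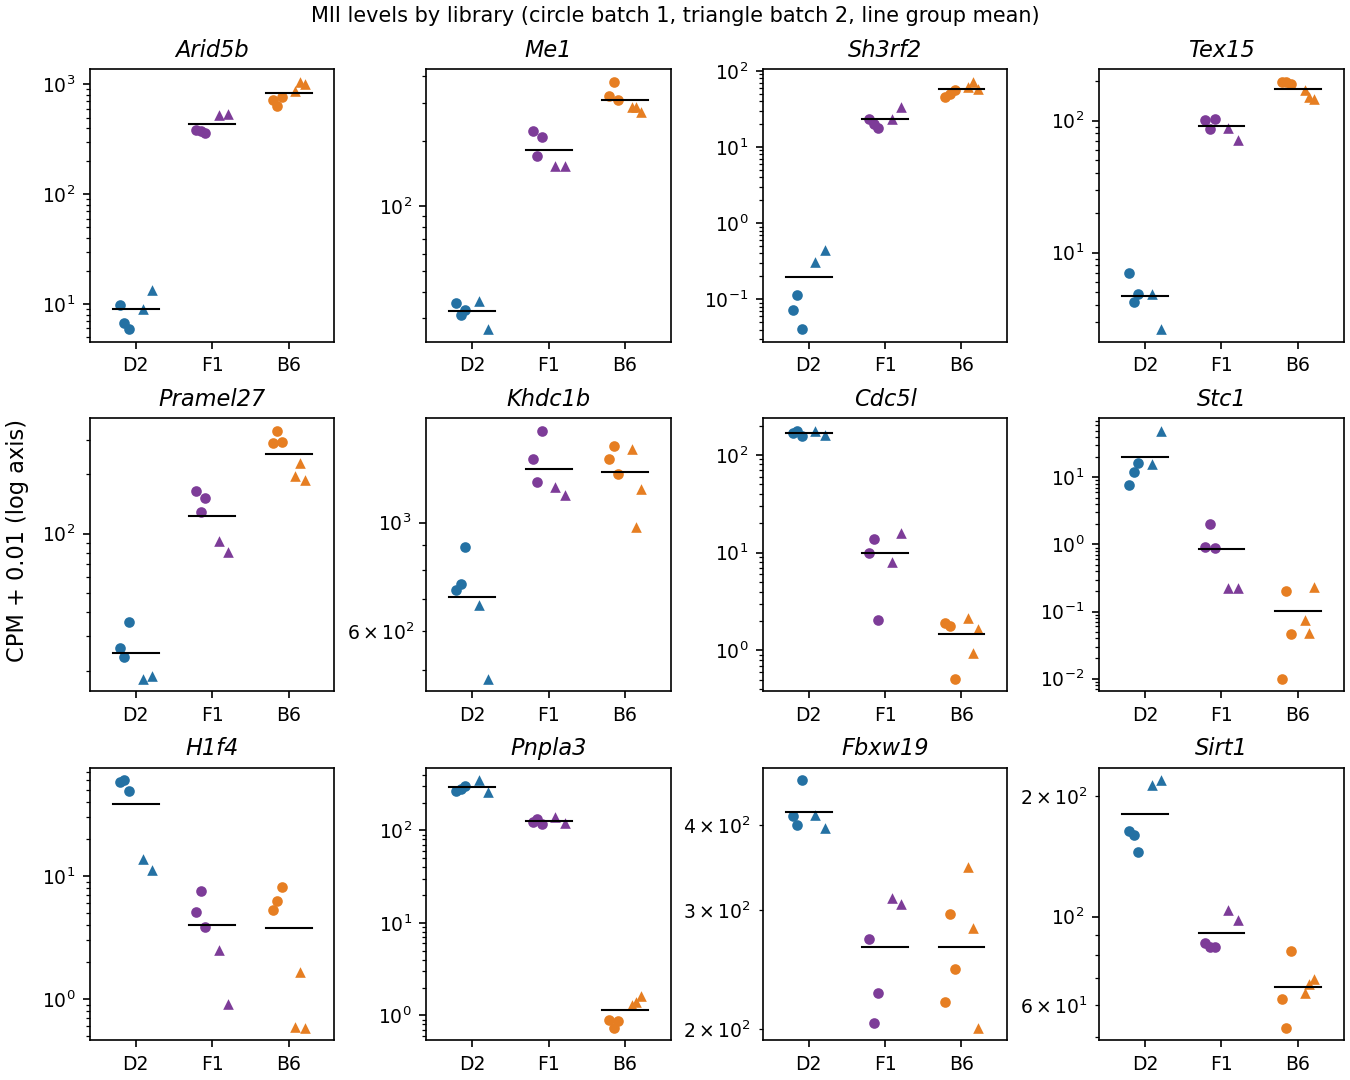
Level of 12 genes in each MII library (y axis, CPM + 0.01, log axis) for D2 (blue, 5 libraries), F1 (purple, 5) and B6 (orange, 6); circles are batch 1, triangles batch 2 and lines group means. For Arid5b, Me1, Sh3rf2, Tex15 and Pramel27 the D2 libraries lie far below F1, for Cdc5l and Stc1 they lie far above, and for H1f4 the 2 batches form separate levels within each strain.

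Cdc5l (chr17:45391887-45433707) had the widest difference among genes called lower in F1 with a D2 mean of 50 CPM or more. It encodes a core subunit of the Prp19-associated splicing complex. D2 libraries held 169, 177, 158, 176 and 161 CPM, and F1 libraries 10, 13.6, 2.03, 8.04 and 15.8 CPM. F1 was below D2 in every library (log2 difference −4.10 ± 0.43, edgeR adjusted p = 5.32e-08), and the B6 mean was 1.47 ± 0.626 CPM. F1 thus stood much closer to the low parent here, at a mean of 9.90 ± 5.34 CPM.

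Stc1, which encodes the secreted glycoprotein stanniocalcin 1, was at 7.73, 12.2, 16.4, 15.8 and 49.5 CPM in D2 and at 0.9, 2.03, 0.868, 0.216 and 0.217 CPM in F1. The groups did not overlap, although the D2 libraries themselves spread several-fold (log2 difference −4.30 ± 0.69, edgeR adjusted p = 3.98e-05). Klf12, a zinc finger repressor, averaged 2.65 ± 1.31 CPM in F1 and 18.3 ± 3.49 CPM in D2, with 0.0857 CPM in B6. Limch1, a regulator of non-muscle myosin, averaged 0.400 ± 0.400 and 6.04 ± 2.89 CPM. Zrsr1, an imprinted gene related to a splicing factor, averaged 1.12 ± 0.548 and 6.08 ± 3.35 CPM and is the least secure of these, with its call lost without F1 batch 2 replicate 2, F1 batch 1 replicate 5 or D2 batch 1 replicate 4, and also after adjustment for the granulosa level.

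Smaller differences with low adjusted p-values lay at other genes of 50 CPM or more. D5Ertd579e averaged 75.5 ± 10.5 CPM in F1 and 167 ± 35.5 CPM in D2 (log2 difference −1.13 ± 0.14, edgeR adjusted p = 1.74e-07). Ptpn12, a tyrosine phosphatase of focal adhesions, averaged 66.5 ± 11.8 and 114 ± 17.0 CPM. Prkci, the atypical protein kinase C of the polarity complex, averaged 82.9 ± 19.9 and 154 ± 49.7 CPM. In all 3 the groups did not overlap, and the B6 means of 32.1, 47.1 and 49.7 CPM lay below F1. For Prkci the groups nearly touched, with the highest F1 and the lowest D2 library both at 112 CPM after rounding.

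Linker histone genes were among those lower in F1. Linker histones bind the DNA that enters and leaves the nucleosome. Growing oocytes carry their own variant, H1f8, beside the replication-dependent genes of the histone cluster on chromosome 13. Of 9 linker histone genes tested, 3 were called lower in F1 and none higher, against 3.2% and 4.92% of all genes. The 3 were H1f4, H1f2 and H1f3. The bases before the start of these genes are shown because the 3 genes fell together. The first 7 bases in capitals are the H1 box, AAACACA, a known element of linker histone promoters, and the next group is CCAAT. In H1f3 and H1f4 a TATAAA follows. The sequences are from RefSeq on GRCm38.p6, 5′ to 3′ on the gene's strand, and end with the base before the annotated start.
H1f2 chr13:23738667-23738806, plus strand: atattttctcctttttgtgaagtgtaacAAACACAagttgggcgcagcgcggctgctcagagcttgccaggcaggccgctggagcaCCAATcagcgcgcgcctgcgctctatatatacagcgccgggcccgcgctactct
H1f3 chr13:23554892-23555031, plus strand: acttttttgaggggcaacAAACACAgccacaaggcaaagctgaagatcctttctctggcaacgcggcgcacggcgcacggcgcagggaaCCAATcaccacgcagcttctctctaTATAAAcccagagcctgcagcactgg
H1f4 chr13:23622559-23622698, minus strand: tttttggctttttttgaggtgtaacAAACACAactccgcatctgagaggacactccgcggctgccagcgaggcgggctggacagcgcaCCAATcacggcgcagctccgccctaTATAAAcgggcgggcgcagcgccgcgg

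The H1 box began 112, 122 and 115 bases before the start of H1f2, H1f3 and H1f4, and CCAAT began 54, 51 and 52 bases before it. Searched on both strands in the same 140 bases, AAACACA was in 3.25% of 32851 RefSeq promoters, CCAAT in 23.4% and TATAAA in 7.21%. The matched letters of these motifs do not overlap each other. H1f5 held all 3 motifs too and had almost no reads, with a mean of 0.248 ± 0.333 CPM in D2, and H1f1, whose window held CCAAT and TATAAA without AAACACA, was not called (90.6 ± 51.2 CPM in F1, 136 ± 93.6 CPM in D2, adjusted p = 0.435). A match is a description of the letters, and it shows no binding.

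H1f4 itself was at 58.3, 60.3 and 49.2 CPM in D2 and 5.05, 7.56 and 3.84 CPM in F1 in batch 1, and at 13.8 and 11.2 CPM against 2.51 and 0.91 CPM in batch 2. All F1 libraries were below all D2 libraries (log2 difference −3.17 ± 0.55, edgeR adjusted p = 0.000189). The B6 mean was 3.74 ± 3.22 CPM, near that of F1 at 3.97 ± 2.53 CPM.

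H1f2 averaged 1.24 ± 0.887 CPM in F1 and 7.92 ± 5.96 CPM in D2, and H1f3 averaged 2.51 ± 1.77 and 13.4 ± 8.87 CPM. Their groups overlapped over all libraries and were apart within each batch. Both were called (adjusted p = 3.19e-05 and 0.000449 in edgeR) and both lost the call without the batch term. The oocyte variant H1f8 was at 1213 ± 217 CPM in F1 and 1187 ± 149 CPM in D2 (log2 difference 0.03 ± 0.12, adjusted p = 0.943), and H1f0 at 103 ± 8.82 and 103 ± 13.5 CPM. Among 58 core histone genes of the H2a, H2b, H3 and H4 clusters, 3 were called lower in F1 and none higher in edgeR, with a median log2 difference of −0.49. Of all genes, 3.2% were lower. DESeq2 called 15 of these 58 genes and voom 17, against 2154 and 1570 of all 19003 genes in either direction. None of the 58 was called at GV in edgeR or DESeq2, and 1 had an unadjusted p below 0.05.

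A list of strain label genes, known from the literature to differ between B6 and D2 strains, was also read. It was chosen with earlier results of these data known, so it is no independent check of the labels. Of 20 tested, 6 were called higher and 5 lower in F1, and the rest, Ahr and Glo1 among them, were not called. Pnpla3, a lipase and acyltransferase of lipid droplets, stood at 124, 133, 116, 140 and 121 CPM in F1 and at 267, 283, 300, 351 and 259 CPM in D2. Every F1 library was below every D2 library (log2 difference −1.20 ± 0.16, edgeR adjusted p = 1.09e-06), and the B6 mean was 1.13 ± 0.348 CPM. Pxdn, a peroxidase that crosslinks collagen IV, showed the same arrangement, with 59.9, 66.6, 58.5, 73.4 and 64.6 CPM in F1, 156, 168, 153, 202 and 198 CPM in D2, and a B6 mean of 0.588 ± 0.312 CPM.

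For Pnpla3 and Pxdn, with B6 near zero, F1 held less than the level of D2 and far more than that of B6 in all libraries. Other members of the list lay the other way. Gpi1, the glycolytic glucose-6-phosphate isomerase, was at 33.3, 34, 26.8, 23.8 and 20.5 CPM in F1 and at 10.2, 9.64, 8.46, 12.3 and 7.52 CPM in D2, with 48.9 ± 9.92 CPM in B6. Ndc80, the kinetochore subunit that binds microtubules, was at 65.4, 65.9, 72.5, 80.5 and 74.3 CPM in F1 and 24.1, 31.6, 49.5, 33.5 and 50.9 CPM in D2. Both were fully apart between F1 and D2, with log2 differences of 1.49 ± 0.19 and 0.92 ± 0.17 (edgeR, adjusted p = 3.83e-07 and 0.000172). Of the other called members, Sh3rf2, described above, and Ide had groups that did not overlap, and Bfsp1, Gsto2, Gpnmb, Myo5a and Mrps27 had groups that did. Gsto2, Gpnmb, Myo5a and Ide lost the call after adjustment for the granulosa level. Bfsp1 lost its call without D2 batch 1 replicate 3, and Myo5a was called in 6 of the 10 fits that leave out a library.

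Many called genes were neighbours. Runs of 3 or more adjacent tested genes called in the same direction numbered 18, of which 14 were higher and 4 lower in F1, and they held 102 genes. The longest were on chromosome 7, at the Vmn1r genes, which encode vomeronasal pheromone receptors and lie in tandem arrays of similar copies. Of 56 Vmn1r genes tested, 41 were called higher in F1 and none lower, against 4.92% and 3.2% of all genes. Members near zero in D2 passed the filter through F1 and B6 libraries and could hardly be called lower. The summed level of the Vmn1r genes was 64.8 ± 13.3 CPM in F1, 8.41 ± 4.89 CPM in D2 and 195 ± 54.8 CPM in B6. With similar copies the reads of a single member cannot be assigned with certainty, so the family total is given beside the count. A stricter filter, 1 CPM in at least 16 libraries, left 16 Vmn1r genes called higher. F1 and B6 libraries can pass that filter without D2 as well.

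A run of 9 genes from Pirb to Lilra6 on chromosome 7, paired immunoglobulin-like receptors, was likewise higher in F1 at a very low level: the 4 named receptors summed to 3.14 ± 1.89 CPM in F1 and 0.0406 ± 0.0518 CPM in D2. These receptors too passed the filter through groups other than D2. On chromosome 12 a run of immunoglobulin constant region genes, Ighg2c, Ighg2b, Ighg1 and Ighg3, was higher in F1. Ighg3 was at 20, 27, 15.7, 32.6 and 16.6 CPM in F1 and at 0.697, 0.515, 0.242, 0.338 and 0 CPM in D2, with 45.2 ± 7.03 CPM in B6. Also on chromosome 12, Srp54a, Fam177a, Srp54b, Fam177a2 and Srp54c, copies of a signal recognition particle gene and of Fam177a, formed a run with log2 differences from 0.55 to 1.07.

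Among the runs lower in F1 was the alpha-tubulin group on chromosome 15, Tuba1b, Tuba1a and Tuba1c, whose products pair with beta-tubulin in the spindle. Tuba1c was at 70.2, 73.9, 67.1, 68.2 and 63 CPM in F1 and 154, 172, 132, 106 and 99 CPM in D2. The F1 values were nearly alike and lay below every D2 value (log2 difference −0.92 ± 0.16, edgeR adjusted p = 0.000124). Tuba1b and Tuba1a had log2 differences of −0.77 ± 0.17 and −0.80 ± 0.17, and their coding sequences are similar enough that reads may be shared between them. Tuba1b was not called after adjustment for the granulosa level. The share of tested genes called ran from 4.63% on X to 13.6% on chromosome 14 among the autosomes and X, with 10.1% on chromosome 7.

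Several gene families are expressed mainly in oocytes. Of 82 tested members of the Obox, Oog, Pramel, Tcl1 and Fbxw families, 11 were higher and 11 lower in F1, against 4.92% and 3.2% of all genes, with a median of −0.04. The directions differed by family. Of 43 Pramel genes, which encode leucine-rich repeat proteins of germ cells and early embryos, 10 were higher and 3 lower. Pramel27 was at 164, 129, 152, 91.7 and 80.6 CPM in F1 and at 26.3, 23.6, 35.7, 18.3 and 19 CPM in D2. The groups were far apart (log2 difference 2.31 ± 0.16, edgeR adjusted p = 1.56e-13), and the B6 mean was 255 ± 59.1 CPM. Pramel22 and Pramel23 averaged 84.6 ± 27.0 and 46.9 ± 8.13 CPM in F1 and 33.3 ± 7.15 and 19.8 ± 3.57 CPM in D2. The summed level of all Pramel genes was 12818 ± 1491 CPM in F1 and 13370 ± 1408 CPM in D2, so the higher members were a small part of the family.

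Fbxw genes of the chromosome 9 cluster encode F-box proteins, the substrate-binding part of ubiquitin ligases. Of 16 tested, 8 were lower in F1 and none higher, against 3.2% and 4.92% of all genes. Fbxw19 was at 272, 204, 226, 313 and 307 CPM in F1 and at 412, 400, 467, 415 and 397 CPM in D2. The groups did not overlap (log2 difference −0.68 ± 0.13, edgeR adjusted p = 0.000313). The family summed to 4079 ± 409 CPM in F1, 5445 ± 788 CPM in D2 and 3692 ± 469 CPM in B6. Adjustment for the granulosa level lowered the count from 8 to 1, with Fbxw18 alone still called. Fbxw19 lost its call there, at a log2 difference of −0.44, as did Fbxw16 and Fbxw25. Batch 1 alone gave 4, batch 2 alone 0, and the fit without the batch term 3. It was 5 without F1 batch 1 replicate 4 and also 5 without the D2 libraries of highest granulosa level. Fbxw19, Fbxw18, Fbxw16 and Fbxw25 kept the call whichever library was left out, while Fbxw13 was called in 4 of the 10 such fits. Copies of this cluster are similar in sequence, and reads may be split among them.

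In the subcortical maternal complex and NLRP list, maternal proteins under the egg membrane that embryos need for the first cleavages, 3 of 23 tested genes were higher and 3 lower in F1. Each is 13% of the list, against 4.92% and 3.2% of all genes. All 3 Khdc1 genes, which encode KH-domain proteins of the oocyte, were higher. Khdc1b was at 1351, 1209, 1541, 1185 and 1137 CPM in F1 and at 730, 751, 892, 679 and 481 CPM in D2, and Khdc1a at 361, 398, 390, 435 and 439 CPM against 269, 259, 269, 231 and 252 CPM. Neither gene's groups overlapped, and the log2 differences were 0.87 ± 0.15 and 0.65 ± 0.12 (edgeR, adjusted p = 0.000115 and 0.000333). The Khdc1 total was 1803 ± 167 CPM in F1, 1032 ± 184 CPM in D2 and 1974 ± 135 CPM in B6.

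Nlrp2, a member of the maternal NLRP family, was at 214, 209, 220, 325 and 294 CPM in F1 and at 356, 362, 422, 440 and 433 CPM in D2. F1 was lower in every library (log2 difference −0.69 ± 0.12, edgeR adjusted p = 8.95e-05), and adjustment for the granulosa level ended the call. Khdc3, a KH-domain scaffold member of the complex, averaged 14.7 ± 3.12 CPM in F1 and 33.9 ± 16.8 CPM in D2. Nlrp14 averaged 831 ± 172 and 1116 ± 270 CPM. Both lost the call under the same adjustment, and Nlrp14 also without F1 batch 1 replicate 4. The adjustment changed the log2 difference of Nlrp14 from −0.42 to −0.24, and that of Khdc3 did not become smaller. The remaining 17 genes of the list were not called.

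In the list of zona and oocyte-secreted factors, 2 of 22 tested genes (9.09%) were lower in F1 and none higher, against 8.11% of all genes called in either direction. They were Nobox, a homeobox factor of oocyte growth, and Taf4b, a TFIID subunit of the gonads. Nobox was at 527, 469, 420, 509 and 479 CPM in F1 and 695, 596, 640, 637 and 801 CPM in D2, with no overlap (log2 difference −0.49 ± 0.12, edgeR adjusted p = 0.00643). In batch 1 or batch 2 alone Nobox was not called, and Taf4b was called in 4 of the 10 fits that leave out a library. Of 31 fertilization and egg activation genes, Camk2g, a subunit of the calcium kinase of egg activation, was higher (280 ± 65.3 against 220 ± 51.6 CPM, log2 difference 0.35 ± 0.09), with overlapping groups, and none was lower. Camk2g lost its call after adjustment for the granulosa level.

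Of 47 genes of maternal mRNA decay, 3 (6.38%) were lower in F1 and none higher. Of all genes, 3.2% were lower and 8.11% were called in either direction. The 3 were Ddx6, a helicase of RNA granules, Pan3, a deadenylase subunit, and Ythdf1, a reader of methylated adenosine. Their log2 differences were −0.64 ± 0.17, −0.34 ± 0.09 and −0.49 ± 0.14. Of 35 genes of translational control, 2 (5.71%) were lower and none higher. Pabpc1, the somatic poly(A)-binding protein, averaged 21.0 ± 6.28 CPM in F1 and 47.6 ± 12.8 CPM in D2 (log2 difference −1.18 ± 0.29, edgeR adjusted p = 0.00758). The log2 difference of Eif4ebp2 was −0.50 ± 0.15. Pabpc1 lost its call without the D2 libraries of highest granulosa level, and Pan3 lost its call without F1 batch 2 replicate 1 or 2 or D2 batch 2 replicate 2. Of the 10 fits that leave out a library, Ythdf1 was called in 6 and Eif4ebp2 in 3, and Ythdf1 was not called after adjustment for the granulosa level.

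Of 56 cell cycle genes 1 was higher (Akap1) and 1 lower (Cdk2), 3.57% together against 8.11% of all genes. In the 10 fits that leave out a library Akap1 was called in 2 and Cdk2 in 6. Neither was called after adjustment for the granulosa level. In the cohesin, kinetochore and spindle list, 3 of 64 were higher (Ndc80, Tubb3 and Cdk5rap2) and 4 lower, 10.9% together. The lower genes were Tuba1c and Tuba1b, described above, Cenpc1, and Kif11, the kinesin that pushes spindle poles apart (110 ± 18.8 against 174 ± 41.8 CPM, log2 difference −0.66 ± 0.13). Kif11, Tuba1b, Cenpc1 and Cdk5rap2 were not called after adjustment for the granulosa level, and Cdk5rap2 was called in 4 of the 10 fits that leave out a library.

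In the maternal chromatin and imprinting list, Sirt1 was the 1 gene of 51 (1.96%) that was called, against 8.11% of all genes. It encodes an NAD-dependent deacetylase. Its level was 85.8, 83.8, 83.8, 104 and 98 CPM in F1 and 164, 160, 145, 213 and 220 CPM in D2. F1 was below D2 throughout (log2 difference −0.97 ± 0.13, edgeR adjusted p = 1.31e-06), and the call held in all 26 alternatives. Of 62 DNA repair genes, 5 (8.06%) were higher and 2 (3.23%) lower, against 4.92% and 3.2% of all genes. Fancc, of the Fanconi anaemia core complex, was at 27.9, 41.2, 40.6, 34.1 and 24.7 CPM in F1 and 16.8, 16.3, 19.1, 19.4 and 18.2 CPM in D2. Its groups did not overlap (log2 difference 0.89 ± 0.17, edgeR adjusted p = 0.000421). Rad51d, a protein of homologous recombination repair, averaged 42.1 ± 15.0 CPM in F1 and 23.8 ± 11.5 CPM in D2, and Brca2 averaged 605 ± 72.0 and 458 ± 73.7 CPM, with overlapping groups in each case. Brca2 lost its call without F1 batch 1 replicate 3, and Rad51d lost its call after adjustment for the granulosa level.

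In the list of glycolysis, pyruvate and the citric acid cycle, the median log2 difference was 0.12, and 1 of 51 tested genes was lower in F1. Higher in F1 were 6 genes (11.8%), against 4.92% of all genes. Beside Me1 and Gpi1 these were Sucla2 and Suclg2, subunits of succinyl-CoA ligase, Cs, citrate synthase, and Pfkm, a phosphofructokinase. Sucla2 averaged 33.9 ± 12.4 CPM in F1 and 17.8 ± 9.48 CPM in D2, and Cs averaged 408 ± 56.5 and 310 ± 42.4 CPM. Both were called with overlapping groups (log2 differences 0.99 ± 0.20 and 0.40 ± 0.09), and Cs, Suclg2 and Pfkm lost the call under adjustment for the granulosa level. Suclg2 was called in 1 of the 10 fits that leave out a library, and Pfkm in 8. The count of 6 was 4 without F1 batch 1 replicate 5 and also 4 without D2 batch 1 replicate 4.

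Of 46 antioxidant genes, 3 (6.52%) were higher and 2 (4.35%) lower, against 4.92% and 3.2% of all genes. Txnrd1, cytosolic thioredoxin reductase, was at 43.8, 57.5, 47.9, 42.7 and 53 CPM in F1 and 27.1, 25.9, 41.8, 23.6 and 12.4 CPM in D2. The lowest F1 library was just above the highest D2 library (log2 difference 0.93 ± 0.17, edgeR adjusted p = 0.000272). In cholesterol synthesis, Sc5d, a desaturase late in the pathway, was higher at 44.7, 47.2, 38.4, 27.8 and 24.4 CPM against 12.3, 11.6, 22, 10.8 and 9.5 CPM, without overlap. Nsdhl and Hmgcs1, enzymes of the same pathway, fell by 0.54 and 0.40 on the log2 scale (edgeR, adjusted p = 0.0331 and 0.0476). Of the 10 fits that leave out a library, Nsdhl was called in 3 and Hmgcs1 in 2, and neither was called after adjustment for the granulosa level.

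Among 38 lipid genes 2 were higher, Acacb and Pnpla2, and 2 lower, Pnpla3 and Acadvl, 10.5% together against 8.11% of all genes. Pnpla2 and Acadvl lost the call after adjustment for the granulosa level. None of 31 interferon and antiviral genes was called in edgeR, 3 of them higher and 1 lower at an unadjusted p below 0.05, and DESeq2 called 1 of them. Of all 19003 genes, 3997 had such a p in either direction, and DESeq2 called 2154. In the H2 complex list, 1 of 27 tested genes was higher and 2 were lower, 11.1% together. H2-Aa, a class II antigen-presenting chain, was at 18.1, 16.5, 14.2, 14.1 and 13.5 CPM in F1 and 39.5, 45.2, 30.4, 30.6 and 22.1 CPM in D2, without overlap, and it lost its call under adjustment for the granulosa level. In the heat shock and immediate early list, 1 of 35 was higher and 2 lower, 8.57% together. Hspa8, the constitutive HSP70 chaperone, was at 447, 443, 401, 529 and 507 CPM in F1 and 668, 731, 825, 881 and 628 CPM in D2, and its call was likewise lost under that adjustment.

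**Figure D3:**
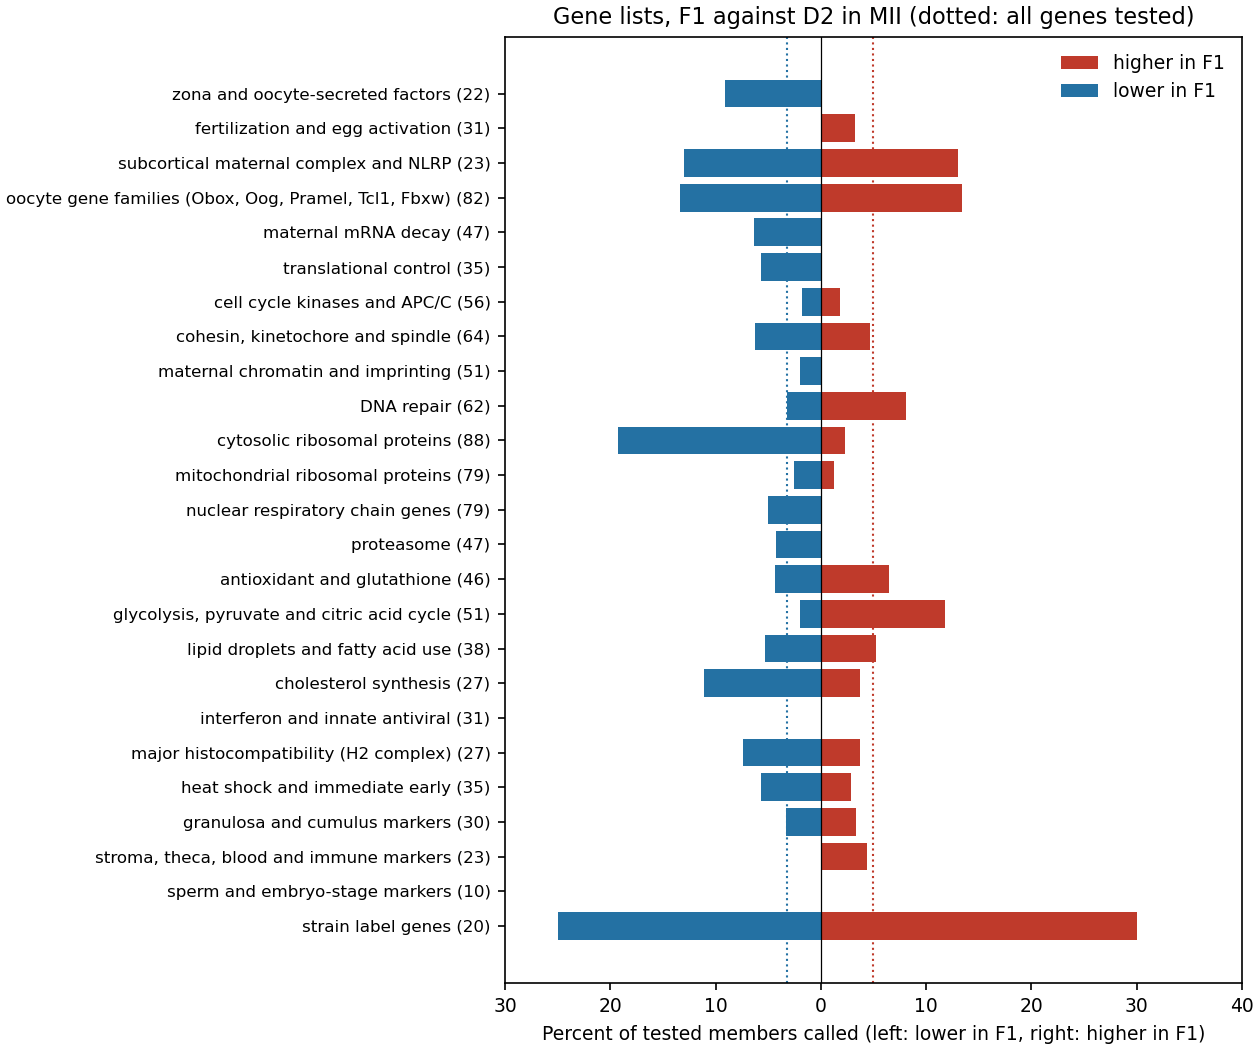
Share of the tested members of each gene list that was called higher in F1 (red, to the right) or lower in F1 (blue, to the left), in percent; the number tested is in parentheses and dotted lines mark the share of all 19003 genes (4.92% higher, 3.2% lower). Cytosolic ribosomal protein genes have 19.3% lower, the glycolysis list 11.8% higher, and the interferon list none in either direction.

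Cytosolic ribosomal protein genes formed the list with most calls in a single direction. Of 88 tested, 17 (19.3%) were lower in F1 and 2 higher, against 3.2% and 4.92% of all genes. The median log2 difference was −0.33. Rpl41, a small protein of the large subunit, was at 69.8, 51, 38.2, 36.4 and 33.1 CPM in F1 and 166, 120, 95.2, 69.2 and 70.6 CPM in D2. The highest F1 library reached the lowest D2 libraries of the other batch, and within each batch the groups were apart (log2 difference −1.15 ± 0.18, edgeR adjusted p = 1.44e-05). Rps15a moved against the list: 64.6, 75.3, 62.3, 31.9 and 23 CPM in F1 and 37.3, 45.8, 39.6, 12 and 8.98 CPM in D2 (log2 difference 1.00 ± 0.17). Ribosomal protein genes have many processed copies in the genome, and no source used here says how reads that match several places were counted.

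The mean log2 level of the ribosomal list in batch 1 was 3.14, 3.43 and 2.73 in F1 and 3.81, 3.88 and 3.31 in D2, and in batch 2 it was 2.27 and 1.99 against 2.36 and 2.11. Batch 2 libraries were lower than batch 1 libraries in both strains, and within each batch the groups overlapped. The granulosa level was also lower in the F1 libraries of batch 1, as given above. Adjusted for that level, 4 of 88 genes were called lower in place of 17, and with the D2 libraries of highest granulosa level left out 14 were. The count was 20 in batch 1 alone, 1 in batch 2 alone and 0 without the batch term. It was 8 when the 10 F1 and D2 libraries were fitted alone, and 11 without F1 batch 1 replicate 5. Of 79 nuclear genes of the respiratory chain, 4 (5.06%) were called lower and none higher, against 3.2% of all genes lower, with a median of −0.31. The count of 4 ran from 1 to 4 when a library was left out, with 1 on leaving out D2 batch 2 replicate 2 or F1 batch 1 replicate 5. All 4 genes lost the call after adjustment for the granulosa level. Of the 79 genes, voom called 1 and DESeq2 8, against 1570 and 2154 of all genes. Mitochondrial ribosomal protein genes (1 higher and 2 lower of 79, median −0.09) and proteasome genes (2 lower of 47, median −0.11) were near the background.

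**Figure D4:**
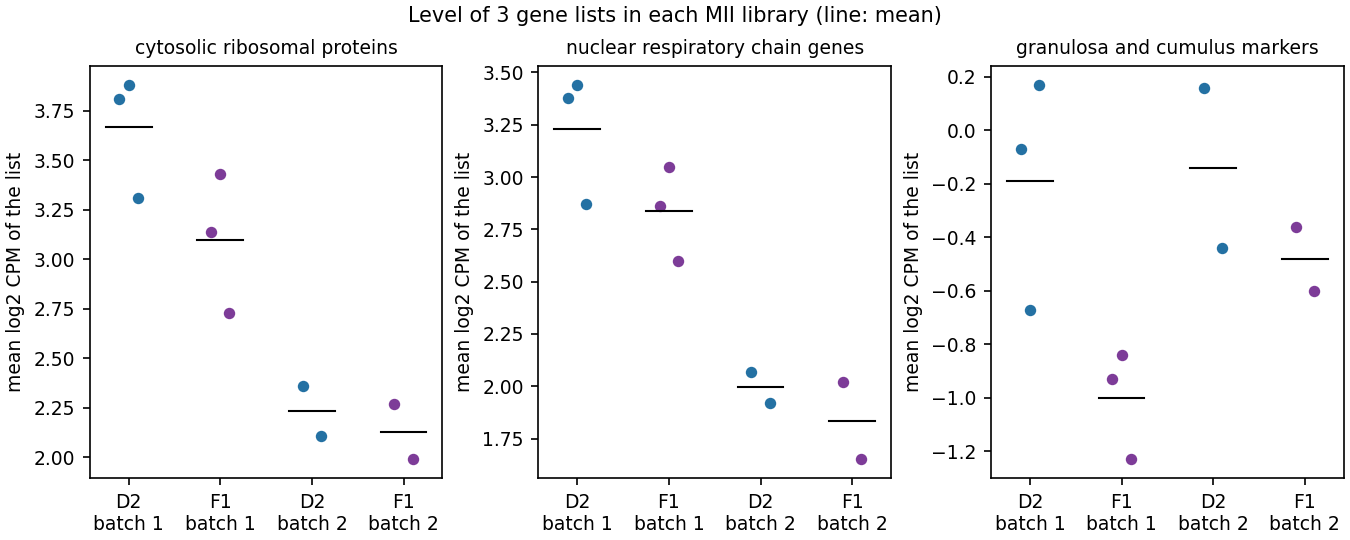
Mean log2 CPM of the cytosolic ribosomal protein, respiratory chain and granulosa marker lists in each MII library of D2 (blue) and F1 (purple), by batch; points are libraries and lines are means. Ribosomal levels run from 2.73 to 3.88 in batch 1 and from 1.99 to 2.36 in batch 2, and the granulosa level of every F1 library in batch 1 is below that of every D2 library of that batch.

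GV oocytes are the fully grown, still immature stage from which MII eggs arise. They gave other libraries, so the contrast can be repeated there. Some GV and MII libraries of a strain carry the same number. Whether these share a female was not tested, so the repeat may not be independent, and the test between stages pairs no libraries. In GV, 1149 genes were called between F1 and D2 (6.05%), 774 higher (4.07%) and 375 lower (1.97%) in F1. Of the genes higher in F1 at MII, 573 were higher at GV too, which is 61.3% of the MII list and 74% of the GV list. Of the genes lower in F1 at MII, 216 were lower at GV, or 35.5% of the MII list and 57.6% of the GV list. No gene was called in opposite directions. Arid5b, Me1, Pramel27, Pnpla3, Cdc5l and Sirt1 had log2 differences of 4.88, 1.93, 2.50, −1.04, −3.49 and −0.80 at GV, all called in edgeR.

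Among the lists, ribosomal protein genes had 0 of 88 lower and 2 higher at GV, with a median of −0.03. None of the 16 Fbxw genes was called at GV in edgeR, with 4 lower at an unadjusted p below 0.05 and 1 called by DESeq2. Of all 19003 genes, 3050 had such a p at GV in either direction, and DESeq2 called 1471. In the test of the difference between stages no member of either set was called in edgeR. At an unadjusted p below 0.05, 7 Fbxw genes and 17 ribosomal protein genes had a lower difference at MII, and 2 ribosomal protein genes a higher one. Of all 19003 genes, 1044 passed that threshold in either direction. DESeq2 called 1 of the ribosomal protein genes, against 23 of all genes. Nlrp2 had a log2 difference of 0.12 at GV, and the difference between stages had an adjusted p of 0.0509, just over the threshold.

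The F1 to D2 difference itself changed between GV and MII at 6 genes (0.0316%), 5 with a higher (0.0263%) and 1 with a lower difference at MII (0.00526%), with 1044 at an unadjusted p below 0.05 in edgeR. Tex15, a protein of meiotic recombination and transposon silencing in germ cells, was among the 5. At MII it was at 102, 86.3, 104, 88.6 and 71.8 CPM in F1 and at 7, 4.22, 4.84, 4.82 and 2.61 CPM in D2, and at GV it averaged 106 ± 15.9 and 20.8 ± 12.1 CPM. The F1 means were 90.5 CPM at MII and 106 CPM at GV, and the D2 mean was several times lower at MII. The log2 difference was 4.26 at MII and 2.35 at GV (change 1.92 ± 0.36, edgeR interaction test, adjusted p = 0.0211).

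Elmo1, a regulator of Rac in cell engulfment and movement, was at 12.4, 11.5, 7.71, 10.1 and 16.5 CPM in F1 MII libraries and at 0.697, 1.03, 1.36, 2.24 and 0.198 CPM in D2. Its GV means were 12.0 ± 1.05 and 5.76 ± 2.42 CPM. Myo7a, an unconventional myosin, averaged 4.12 ± 2.30 CPM in F1 and 0.0546 ± 0.0388 CPM in D2 at MII and 6.52 ± 2.92 and 1.82 ± 1.36 CPM at GV. In both, the D2 mean was lower at MII than at GV. It was 1.1 against 5.76 CPM for Elmo1 and 0.0546 against 1.82 CPM for Myo7a, whose MII value rests on 8 reads. Levels of markers of other cells were more widely spread at GV: the summed granulosa list was 433 to 4165 CPM in D2 and 390 to 2538 CPM in F1 at GV, against 471 to 563 and 425 to 509 CPM at MII. The summed list of stroma, theca, blood and immune markers was 29.9 to 700 CPM in D2 and 60.2 to 197 CPM in F1 at GV, against 45.5 to 61.9 and 59.9 to 96 CPM at MII. The part of these markers in the stage differences was not tested. The number of genes past this test was 23 with DESeq2 and 3 without the batch term.

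**Figure D5:**
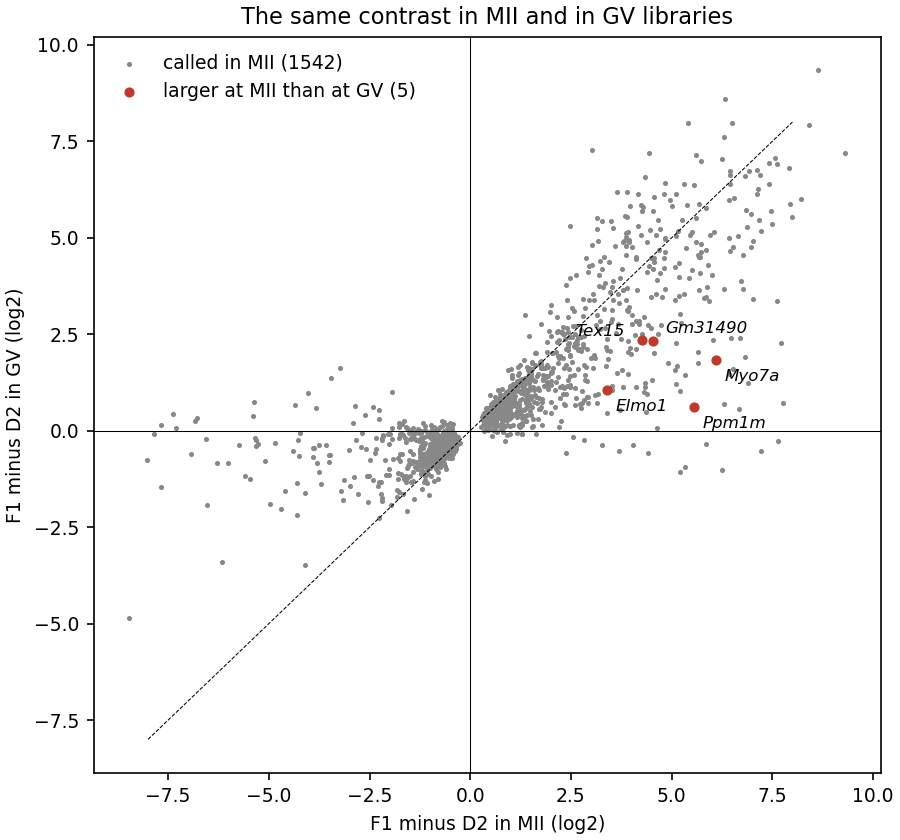
Log2 difference of F1 from D2 at MII (x axis) and at GV (y axis) for the 1542 genes called at MII (grey) and the 5 genes with a higher difference at MII by the interaction test (red, named); the dashed line marks equal differences. Most points follow the line at a smaller size at GV, and choosing the genes by their MII call by itself favours larger MII values. Tex15 lies at 4.26 at MII and 2.35 at GV.

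The call depended on batch for many single genes. Of 120 called genes followed individually, 36 were called in batch 2 alone and 90 in batch 1 alone, 73 without the batch term and 78 after adjustment for the granulosa level. None changed direction under any of the 26 alternatives, and 33 were called under all of them. Genes named by rule already had the same direction in each batch, and the alternatives reuse the same libraries. A reversal was therefore unlikely from the outset.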

How the data were processed

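RNA was extracted from pooled oocytes after removal of the zona pellucida in acid buffer, amplified with the SPIA method and sequenced as 50 base single reads, per the labels' protocols. The deposited values are whole-number read counts per gene. HISAT2, SAMtools, featureCounts, Subread 1.5.1, DESeq2 1.16.1 and the build GRCm38.p4 are named in the submitters' processing notes, and the strand setting and the treatment of reads with several matches are not given in the sources used here. GRCm38 is the C57BL/6J assembly, and whether reads of D2 alleles align as often as those of B6 alleles was not tested.

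Of 37444 entries, 3 that did not hold a usable gene row (at most 0.019% of a library) were left out, and 36371 of the other 37441 matched a RefSeq name (GRCm38.p6). The 19003 genes kept by edgeR's filterByExpr were fitted in edgeR 4.0.16 (R 4.3.3; TMM scaling, robust glmQLFit and glmQLFTest) with all 32 libraries, the 6 strain and stage groups and batch. The p-values were adjusted by Benjamini-Hochberg over all genes of a comparison, at 0.05. The replicates of a group are pools from separate mothers, and values ± are SD over libraries, or SE for log2 differences. Replicates differed beyond counting noise, so none was merged.

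Genes were named by rule: called, at 5 CPM or more in the higher group, the same direction in each batch, and then the 8 largest differences and the 5 lowest adjusted p-values (at 50 CPM) per direction, up to 4 called genes per list, strain label genes, and 4 stage-difference genes per direction. The histone genes beyond H1f2 and H1f4, the neighbour runs and families, Pirb, Lilra6, Ighg1, Ighg2b, Ighg2c, the Srp54 and Fam177a genes, Tuba1a, Cenpc1, Tubb3, Cdk5rap2, Pfkm, Suclg2, Acadvl, Khdc3 and Nlrp14 were chosen after their values were seen. A few genes that the rule or a list covers are not reported here, and counts include them. Members and lists were chosen with earlier results of these data known. The 25 lists held 1170 members. Of these, the stroma list had 1 gene higher of 23 tested (median 0.01), the granulosa list 1 higher and 1 lower of 30 (median −0.75) and the sperm and embryo list none of 10 (median −0.28; 3 lower at an unadjusted p below 0.05, and 1 called by DESeq2).

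Whether replicate numbers pair F1 with D2 libraries in MII was not settled. Deviations of same-numbered libraries correlated at −0.092 and −0.164 in batch 1, where differently numbered ones ran from −0.131 to 0.238. In batch 2 the value was −0.01, and with 2 libraries per group both pairs must give the same value. Pairing of GV with MII libraries was not checked. On simulated counts for the 19003 genes, the F1 to D2 test in MII found 14% of 50 genes changed by 1.5-fold and 30%, 52% and 68% of those changed by 2-fold, 4-fold and 8-fold. Alternatives used limma 3.58.1 (voom) and DESeq2 1.42.0, other scalings, filters, batch terms and sample sets, each library left out, and a granulosa covariate.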

Additional observations from a re-analysis of the deposited data

Results flagged for a closer look

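Among 108 groups of 5 libraries tested, 6 held a library far from the others by Dixon's criterion, and chance alone flags about 1 in 20 groups. Stc1 was 49.5 CPM in D2 batch 2 replicate 2 and 7.73 to 16.4 CPM in the other D2 libraries. In D2 batch 1 replicate 4, Fbxw19 was 467 CPM (397 to 415 in the others) and Sc5d was 22 CPM (9.5 to 12.3). Egr1 was 184 CPM in F1 batch 2 replicate 2 and 140 to 149 CPM in the other F1 libraries. In F1 batch 1 replicate 5 the mean log2 level of the maternal chromatin and imprinting list was 6.71 (6.55 to 6.60 in the others) and that of the heat shock and immediate early list was 3.09 (3.43 to 3.57).

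The difference of F1 from D2 changed between GV and MII by an interaction test (edgeR, Benjamini-Hochberg adjusted) at 6 genes, 5 of them with a higher difference at MII. For these 5 the change in log2 difference was 4.94 for Ppm1m (adjusted p = 0.00732, a log2 difference of 5.55 at MII and 0.62 at GV), 2.34 for Elmo1, 2.20 for Gm31490 (4.53 and 2.33), 4.26 for Myo7a and 1.92 for Tex15. Ppm1m rests on 8 reads in the 5 D2 MII libraries and Myo7a also on 8.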

How the results depend on the processing

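No alternative reversed any of the 120 called genes followed individually, most of which were named only if their direction was the same in each batch. The total of 1542 called genes was 979 against a 1.2-fold minimum, 907 in batch 1 alone, 343 in batch 2 alone, 842 without the batch term and 870 with the granulosa covariate. Genes higher in F1 (934) numbered 598, 299, 602 and 551 in batch 1 alone, batch 2 alone, without the batch term and with the covariate. Genes lower in F1 (608) numbered 1022 with DESeq2, 320 against the 1.2-fold minimum, 309, 44, 240 and 319 under those 4 settings, and 402 without the 2 D2 libraries of highest granulosa level. The count of 834 genes at least 2-fold apart was 286 in batch 2 alone and 506 with the covariate. Of these, 242 and 435 were among the 834. Those higher (591) numbered 261, 392 and, in the 10 libraries alone, 376. Those lower (243) numbered 25, 114, 452 with DESeq2 and 122 without the batch term. The GV count of 1149 was 618 without the batch term, and the stage difference of 6 genes was 23 with DESeq2, 3 without the batch term and 3 with the replicate block.

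Leaving out each library in turn gave 1241 to 1376 called genes, 795 to 894 higher and 432 to 554 lower, and at 2-fold 710 to 810, 528 to 577 higher and 152 to 247 lower, the 152 without F1 batch 1 replicate 5. With batch and number as a replicate block, 1357 genes were called, 849 higher and 508 lower. The causes of these shifts were not tested, beyond the smaller number of libraries in the split and left-out fits. In the simulation most genes changed by 1.5-fold or 2-fold were missed, with 14% and 30% found, and 52% were found at 4-fold. It changed 50 genes per fold size among 19003, a smaller share than was called in the data. It also used a single mean per gene over all groups, so its recovery does not carry over directly. Among called genes, 343 higher and 365 lower in F1 were less than 2-fold apart.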
